A study of Mus musculus with 12 samples.

Results

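Brown adipose tissue of 12 mouse samples was profiled on Illumina arrays, and the arrays carrying high column numbers were compared with those carrying low ones. The columns of the non-normalised table each held a 4-digit number, and the numbers formed a low and a high range with a wide gap between them, 6 arrays in each, so that all 12 of 12 arrays entered the comparison. Members were placed by that number alone, and genotype was a covariate. The mice were 3 months old on the C57Bl/6N background, either wild type (WT) or of the strain SIRT1Tg/Tg (SIRT1tg), which carries a transgene for the NAD-dependent deacetylase SIRT1. Each number range held 3 WT and 3 SIRT1tg arrays, and no treatment is named for either genotype. What the number stands for (an animal, a tissue collection, an extraction or a chip), the promoter of the transgene, and whether samples came from separate animals are not stated in the labels or files. The p-values therefore measure the spread between these samples, which may be technical. Arrays are called WT low 1 to 3, WT high 1 to 3, SIRT1tg low 1 to 3 and SIRT1tg high 1 to 3 in the order of their number, an order that pairs nothing.

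Brown adipose tissue burns fat and glucose to make heat through the mitochondrial uncoupling protein UCP1, under the control of noradrenaline from sympathetic nerves. It also makes fatty acids from glucose. Citrate leaves the mitochondrion, ATP citrate lyase cleaves it to acetyl-CoA, and acetyl-CoA carboxylase and fatty acid synthase build palmitate from it, while the mevalonate pathway turns the same acetyl-CoA into sterols. In liver and fat these enzymes are known to be switched by feeding and insulin through the transcription factors SREBP-1c and ChREBP, and the sterol enzymes through SREBP-2. Immediate early genes such as Fos and Egr1 are transcribed within minutes of a stimulus and fade within hours.

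Between 11221 and 12108 of 25697 probes per array were detected over the negative control beads, and the median raw signal lay between 98.95 and 108.6. Neither measure separated the ranges, with a difference in detected probes, high minus low, of -96.7 (exact two-sided permutation within genotype, p = 0.52) and in the raw median of -0.41 (p = 0.81). Values below are normalised log2 signals, and the number of arrays limits their precision. The brown fat markers Ucp1, Cidea and Cox8b (the last chosen after its values were seen) lay between 12.80 and 13.83 on all 12 arrays, against a median of 6.59 over all genes. Of the other brown adipocyte markers listed, Cox7a1 averaged 13.30, Fabp3 12.63, Kcnk3 9.31, Ppargc1a 8.84 and Elovl3 6.65, the last near that median. Cox7a1, Fabp3 and Kcnk3 were likewise chosen after their values were seen. Sirt1, the targeted gene, lay between 6.43 and 7.27 on WT and between 7.97 and 8.58 on SIRT1tg arrays, as labelled. Some arrays stood apart. On 5 arrays (WT low 1 and 2, WT high 1 and 2, SIRT1tg high 2) skeletal muscle transcripts stood above their mean over the 12 arrays. SIRT1tg low 2 lay far from the other low-numbered arrays in the genes of fatty acid synthesis.

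Of 8035 genes tested, 404 (5.03%) differed between the ranges at a Benjamini-Hochberg adjusted p under 0.05 in limma's moderated test, which is what "higher", "lower" and "passed" refer to below unless a value is said not to have passed. On the high-numbered arrays 194 genes (2.41%) were higher, by a median of 1.46-fold and by at most 3.91-fold, and 210 (2.61%) were lower, by a median of 1.39-fold and at most 3.57-fold. Over 2-fold were 20 of the higher and 12 of the lower genes. The median log2 difference over all genes was -0.02. The 6 high and 6 low signals did not overlap for 164 of the 404, and for 234 of all genes tested (2.91%; 112 higher, 1.39%, and 122 lower, 1.52%). With median scaling in place of quantile normalisation 68 genes were higher and 187 lower, so that the higher share of the calls was 26.7% in place of 48.0%. Another 182 detected probes belonged to 127 of these genes, and 167 of them had the sign of the probe used.

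The count depended on single arrays. It was 638 without SIRT1tg low 2 (391 shared with the 404), 141 without WT low 1, 206 without WT low 2, 170 without WT low 3, 83 without WT high 2, 180 without WT high 3, 216 without SIRT1tg low 3, 173 without SIRT1tg high 2 and 135 without SIRT1tg high 3. Whichever array was left out, 78 of the 404 passed and all 404 kept their sign. With the muscle signal as a covariate 205 genes passed, 183 of them among the 404. On the 7 arrays left without those above the mean muscle signal 0 passed in limma (lowest adjusted p = 0.163, with 1072 genes at an unadjusted p under 0.05), and all 404 kept their sign. The 404 were chosen on these same arrays, which favours the same sign in every such fit.

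The 4 genes with the largest increases among those that passed (Acly, Acss2, Slc25a1 and Fasn) belong to fatty acid synthesis. Of 22 measured genes of the 28 listed for de novo lipogenesis, 9 were higher and 1 was lower on the high-numbered arrays, where 2.41% and 2.61% of all genes were. The counts of the lists below stand against the same shares. The median log2 difference of the list was 0.30, with 19 of 22 members above 0, against -0.02 over all genes. Acly, which encodes ATP citrate lyase, was 3.91-fold higher. It read 10.81, 11.06 and 11.28 on the WT low and 11.03, 12.71 and 10.86 on the SIRT1tg low arrays, against 13.00, 13.58 and 13.64 on the WT high and 12.89, 13.18 and 13.24 on the SIRT1tg high arrays. Every high-numbered array was above every low-numbered one, and the nearest low-numbered array was SIRT1tg low 2. The log2 difference was 1.97 ± 0.28 (SE; adjusted p = 0.00721), and the exact permutation within genotype gave p = 0.005, the smallest that the 400 splits can give. Without SIRT1tg low 2 it was 2.27, and without the 5 arrays rich in muscle transcripts 1.78.

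**Figure D1:**
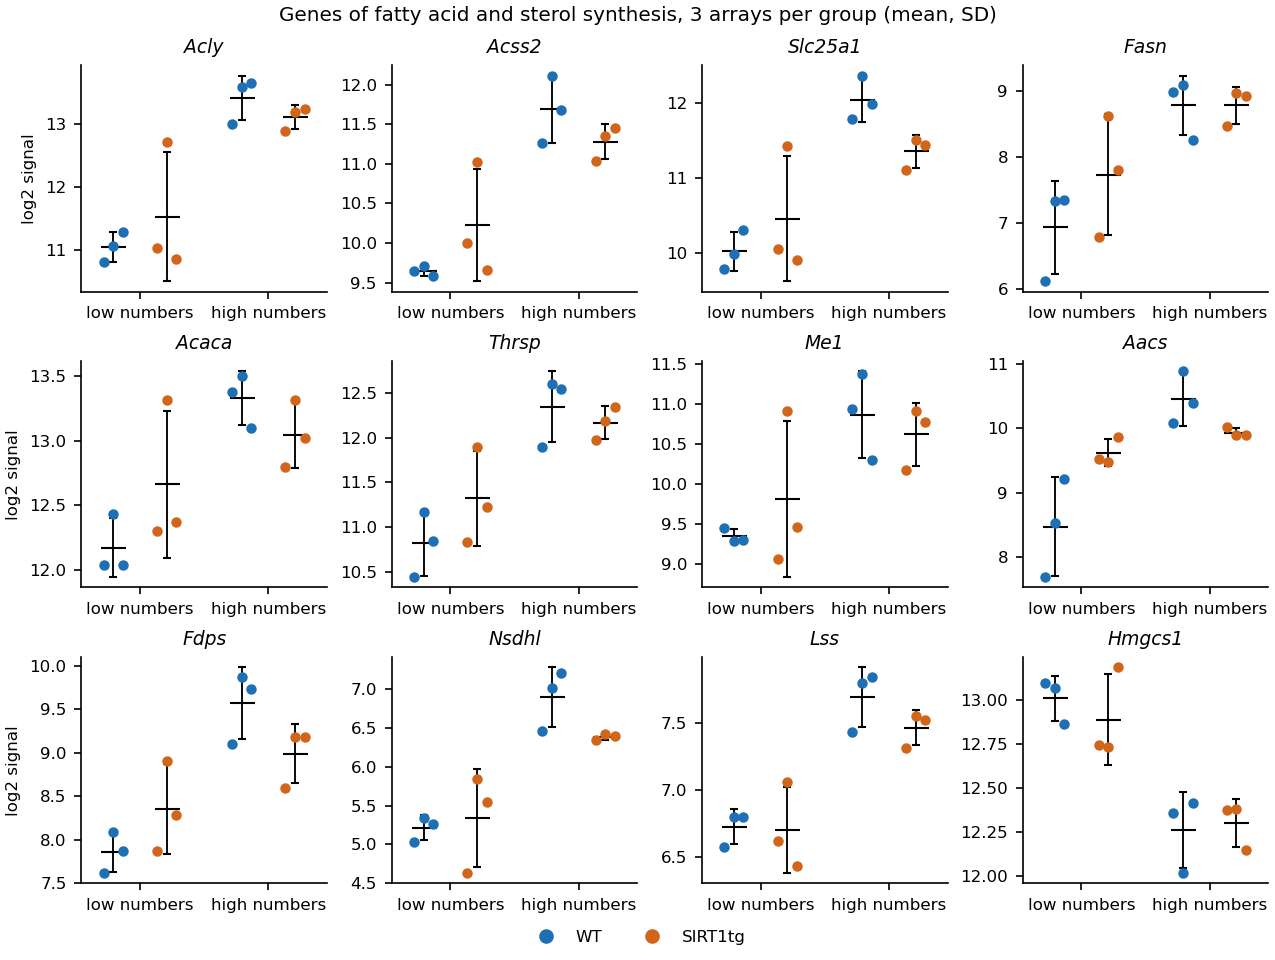
Normalised log2 signal (vertical axis, a separate scale in each panel) of 12 genes of fatty acid and sterol synthesis on each array, by number range; points are arrays (blue WT, orange SIRT1tg), bars the mean and SD of 3 arrays. For Acly the 6 high-numbered arrays lie between 12.89 and 13.64 and SIRT1tg low 2 at 12.71, above the other low-numbered arrays, while Hmgcs1 lies lower on the high-numbered arrays, at 12.02 to 12.42.

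Genes of the neighbouring steps were higher as well. Slc25a1, the mitochondrial carrier that exports citrate, lay between 9.78 and 11.42 (median 10.01) on the low-numbered and between 11.10 and 12.37 (median 11.65) on the high-numbered arrays, 2.76-fold higher (log2 1.46 ± 0.27, adjusted p = 0.0134). SIRT1tg low 2 alone overlapped the high range. Acss2, the cytosolic acetyl-CoA synthetase that uses acetate, lay between 9.59 and 11.02 against 11.03 and 12.11, with no overlap (1.55 ± 0.24, adjusted p = 0.00825). Fasn, fatty acid synthase, ran from 6.12 to 8.62 (median 7.35) on the low-numbered and from 8.27 to 9.10 (median 8.95) on the high-numbered arrays. SIRT1tg low 2 was again the only low-numbered array inside the high range, and the difference was 1.45 ± 0.31 (adjusted p = 0.0228). Without WT high 2 the adjusted p of Fasn was 0.0598.

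Other genes of the list differed by less or did not pass. Thrsp, a lipogenic regulator also called Spot 14, was higher by 1.18 ± 0.20 on the log2 scale, Me1, the malic enzyme that supplies NADPH, by 1.17 ± 0.29, Aacs, which activates acetoacetate, by 1.14 ± 0.30, and Acaca, acetyl-CoA carboxylase 1, by 0.77 ± 0.19. Acaca, Aacs and Dgat1 were chosen for naming after their values were seen. Scd2, a stearoyl-CoA desaturase, was detected on 1 of 6 low-numbered and on 6 of 6 high-numbered arrays, and its difference of 0.89 ± 0.15 is compressed by the background. Its bright relative Scd1, also chosen after its values were seen, lay between 13.54 and 13.79 on all arrays and did not pass (0.04 ± 0.07). Differences between signals that bright may be compressed at the top of the scale. Dgat1, which adds the last fatty acid to triglyceride, was lower, at 9.73 to 10.12 on the low-numbered and 9.07 to 9.66 on the high-numbered arrays (-0.49 ± 0.12, adjusted p = 0.0376). Elovl6, which elongates palmitate, did not pass (0.63 ± 0.20, adjusted p = 0.0860). The transcription factor genes did not pass either, and these 3 genes too were chosen after their values were seen. Srebf1, which encodes SREBP-1, had a difference of 0.15 ± 0.19 (adjusted p = 0.680), and Mlxipl, which encodes ChREBP, one of 0.39 ± 0.11 (adjusted p = 0.0522), though its 6 high-numbered signals (9.84 to 10.35) lay above all low-numbered ones (9.41 to 9.80). Without WT high 2, or with the muscle signal as a covariate, 5 of the 9 higher genes of the list passed. Acly, Acss2, Slc25a1, Thrsp and Scd2 passed whichever array was left out. Me1 and Acaca passed in 2 and Aacs and Dgat1 in 3 of the 12 such fits.

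In cholesterol synthesis 4 of 19 measured genes (26 listed) were higher and 1 was lower, with a median of 0.09. Nsdhl, a sterol dehydrogenase of the late pathway, was 2.57-fold higher, from 4.63 to 5.84 on the low-numbered to 6.34 to 7.20 on the high-numbered arrays (log2 1.36 ± 0.20, adjusted p = 0.00721). Its signals did not overlap, and its 3 other detected probes gave 1.34, 1.24 and 0.57. Fdps, which makes farnesyl diphosphate, was higher by 1.17 ± 0.23, Pmvk, phosphomevalonate kinase, by 0.95 ± 0.14, and Lss, lanosterol synthase, by 0.87 ± 0.12, the last from 6.43 to 7.06 up to 7.32 to 7.84. Hmgcs1, which encodes the HMG-CoA synthase at the entry of the same pathway, went the other way. It lay between 12.73 and 13.18 on the low-numbered and between 12.02 and 12.42 on the high-numbered arrays, without overlap (-0.67 ± 0.11, adjusted p = 0.0102), and was lower in WT (-0.75) and in SIRT1tg (-0.59). Insig1, Srebf2 and Cyp51, a repressor, a regulator and an enzyme of this pathway, were also chosen after their values were seen and did not pass (0.04, 0.03 and 0.09). A single Hmgcs1 probe was measured.

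Promoters were searched for the 13 genes of the lipogenesis and cholesterol lists that passed as higher. Their common direction follows from that choice, and Dgat1 and Hmgcs1, which passed as lower, were not searched. For 11 of the 13 lipogenic and sterol genes that were higher, RefSeq promoter windows (build GRCm38.p6) were at hand, 13 windows in all, and the 250 bases before each start were searched on both strands for 3 motifs. The CCAAT box, the letters CCAAT as bound by NF-Y, was found in 8 of the 13 windows, against 33.8% of 32851 windows of the same length. An E-box, CACGTG, was found in 1 window (Slc25a1), against 6.02%, and the sterol element TCACNCCAC in 0, against 1.05%. A match describes letters only, and whether these counts differ from the shares of all windows was not tested. In the windows below CCAAT, or its reverse ATTGG, is in capitals, and in Fasn a match on each strand overlaps in CCAATTGG. The windows are Acly at chr11:100528001-100528250 (minus strand, no match), Fasn at chr11:120824548-120824797 (minus), Acss2 at chr2:155517793-155518042 (plus), Thrsp at chr7:97417551-97417800 (minus) and Lss at chr10:76531355-76531604 (plus), each written 5′ to 3′ along its gene.
Acly: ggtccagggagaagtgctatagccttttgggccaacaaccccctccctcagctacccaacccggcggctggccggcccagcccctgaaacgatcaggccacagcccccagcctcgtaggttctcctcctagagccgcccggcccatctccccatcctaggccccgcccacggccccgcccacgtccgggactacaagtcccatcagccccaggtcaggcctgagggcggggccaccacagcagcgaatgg
Fasn: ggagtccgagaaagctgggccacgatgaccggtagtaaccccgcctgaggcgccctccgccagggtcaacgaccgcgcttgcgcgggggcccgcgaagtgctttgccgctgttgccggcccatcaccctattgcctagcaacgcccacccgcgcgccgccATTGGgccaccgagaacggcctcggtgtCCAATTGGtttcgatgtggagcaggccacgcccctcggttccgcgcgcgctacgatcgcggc
Acss2: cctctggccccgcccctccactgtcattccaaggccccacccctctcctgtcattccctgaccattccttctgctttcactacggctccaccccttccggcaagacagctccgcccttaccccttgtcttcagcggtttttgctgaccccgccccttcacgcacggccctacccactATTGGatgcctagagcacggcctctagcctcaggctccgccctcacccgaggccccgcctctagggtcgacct
Thrsp: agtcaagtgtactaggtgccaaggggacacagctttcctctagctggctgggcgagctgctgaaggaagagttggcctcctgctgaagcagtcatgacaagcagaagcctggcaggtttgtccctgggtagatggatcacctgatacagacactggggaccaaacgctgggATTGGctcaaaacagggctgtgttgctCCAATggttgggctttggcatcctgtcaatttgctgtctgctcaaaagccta
Lss: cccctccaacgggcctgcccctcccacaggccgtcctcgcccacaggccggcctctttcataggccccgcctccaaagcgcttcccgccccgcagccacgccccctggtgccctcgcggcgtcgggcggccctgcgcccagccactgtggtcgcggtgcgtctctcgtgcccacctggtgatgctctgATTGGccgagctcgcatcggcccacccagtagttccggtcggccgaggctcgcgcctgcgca

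Next to Fasn in the RefSeq gene order lies Ccdc57, a coiled-coil gene, which was 2.60-fold higher. It was detected on 3 of 6 low-numbered and 6 of 6 high-numbered arrays and read 4.42 to 5.47 against 5.78 to 6.48, with no overlap (log2 1.38 ± 0.18, adjusted p = 0.00721). The smallest p of all genes belonged to Fn3k, fructosamine 3-kinase, which removes sugar adducts from proteins and was chosen after its value was seen. Its signals were 6.35 to 6.75 on the low-numbered and 7.24 to 7.83 on the high-numbered arrays (log2 standard error 0.11, adjusted p = 0.00371).

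Of 26 measured genes (35 listed) of glucose uptake, glycolysis and glycogen, 6 were higher and 0 were lower, with a median of 0.21 and 20 members above 0. Pkm, pyruvate kinase, lay between 11.49 and 12.62 (median 11.87) on the low-numbered and between 12.42 and 13.06 (median 12.87) on the high-numbered arrays, and SIRT1tg low 2 was the low-numbered array that reached the high range. It was 1.79-fold higher (log2 0.84 ± 0.17, adjusted p = 0.0180). Pygl, a glycogen phosphorylase, was higher by 0.80 ± 0.17 and Ugp2, which makes the UDP-glucose of glycogen synthesis, by 0.78 ± 0.17. Pfkm, a phosphofructokinase, was higher by 0.61 ± 0.15, Hk1, a hexokinase detected on 2 of 6 low-numbered arrays, by 0.46 ± 0.12, and Gapdh, a glycolytic dehydrogenase, by 0.40 ± 0.10. Pkm and Ugp2 passed in 11, Pygl in 10, Pfkm in 3, Gapdh in 2 and Hk1 in 1 of the 12 fits that left out an array. Slc2a4, the insulin-responsive glucose carrier GLUT4, did not pass (0.20 ± 0.18).

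Of 26 measured genes of the tricarboxylic acid cycle and pyruvate list 3 were higher and 0 lower. Pdhb, a subunit of pyruvate dehydrogenase, lay between 10.22 and 11.10 on the low-numbered and between 11.09 and 11.44 on the high-numbered arrays, with SIRT1tg low 2 at the low range's top (0.78 ± 0.13, adjusted p = 0.0106). Pdk1, a kinase that inhibits that enzyme, was higher by 0.54 ± 0.15 but passed in 1 of the 12 fits that left out an array. Me1 was the other, the median was 0.11, and 23 members were above 0. Without WT high 2, 0 genes of the glucose list and 1 of the pyruvate list passed, and with the muscle signal as a covariate 3 and 1. Pkm, Pygl and Ugp2 were among those 3, whereas the adjusted p of Pfkm, Gapdh and Hk1 rose to 0.0940, 0.0959 and 0.0959.

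**Figure D2:**
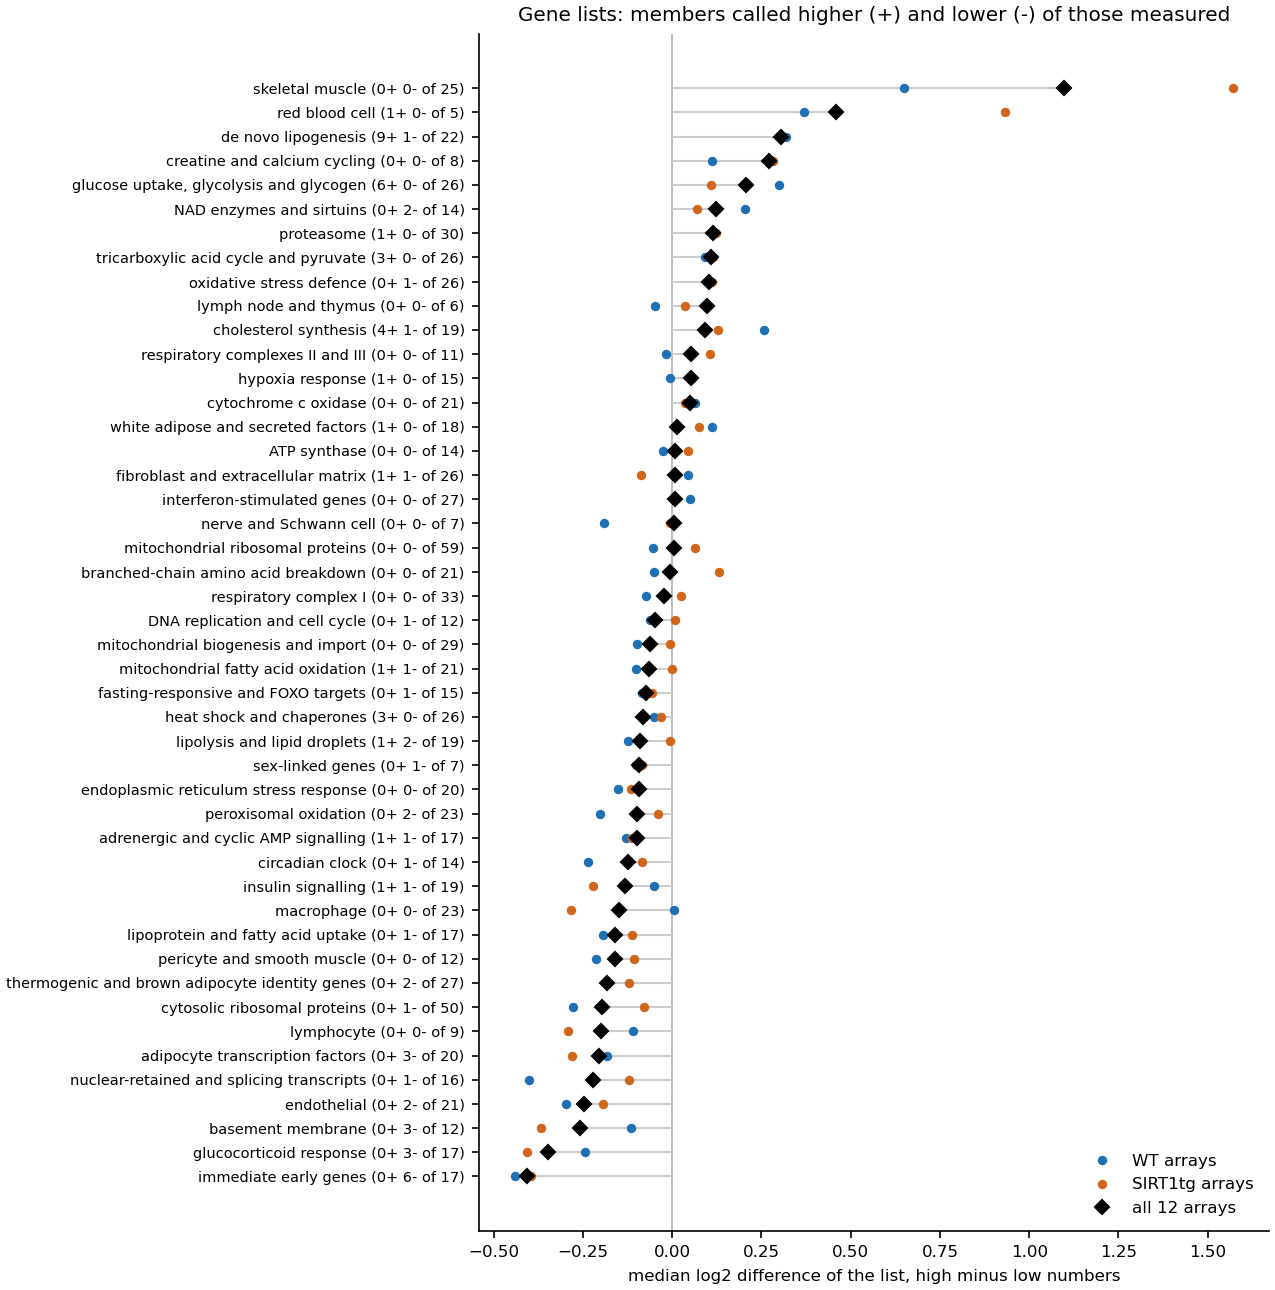
Median log2 difference (horizontal axis, high minus low numbers) of each gene list over its measured members, for all 12 arrays (black) and within WT (blue) and SIRT1tg (orange); the counts beside each name are members that passed higher (+) and lower (-). Skeletal muscle stands at 1.10 with 0 of 25 members past the test and de novo lipogenesis at 0.30 with 9 higher and 1 lower, while immediate early genes stand at -0.41 with 6 lower.

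Of 17 measured immediate early genes (24 listed) 6 were lower and 0 higher on the high-numbered arrays, with a median of -0.41 and 2 members above 0. Egr1, a zinc finger transcription factor, read 10.62, 10.46 and 11.26 on the WT low and 8.25, 9.92 and 10.16 on the SIRT1tg low arrays, against 8.86, 8.86 and 7.99 on the WT high and 7.59, 8.94 and 8.13 on the SIRT1tg high arrays. SIRT1tg low 1 alone lay inside the high range. The difference was -1.71 ± 0.34 (3.28-fold lower, adjusted p = 0.0180). Fos, a subunit of AP-1, ranged from 5.55 to 9.19 (median 7.02) on the low-numbered and from 4.74 to 5.85 (median 5.41) on the high-numbered arrays, and only SIRT1tg low 1 overlapped (-1.80 ± 0.39, adjusted p = 0.0239). The spread of Fos among low-numbered arrays was thus wider than that among high-numbered ones.

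Dusp1, a phosphatase that ends MAP kinase signalling, lay between 10.03 and 11.14 on the low-numbered and between 9.12 and 9.87 on the high-numbered arrays, without overlap (-1.20 ± 0.18, adjusted p = 0.00721). Zfp36, which speeds the decay of cytokine mRNAs, did not overlap either (-0.92 ± 0.17), and Junb, a further AP-1 subunit (-0.67 ± 0.14), and Socs3, a feedback inhibitor of cytokine signalling (-0.35 ± 0.08), were lower. Fosb and Jun, chosen after their values were seen, did not pass (-0.92, adjusted p = 0.100, and -0.53, adjusted p = 0.0944). Dusp1, Egr1 and Zfp36 passed whichever array was left out, Fos failed without WT low 3 or WT high 2, and Junb failed without WT high 2. Socs3 passed in 7 of the 12 such fits and lost its call with the muscle signal as a covariate (adjusted p = 0.0752).

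The glucocorticoid list had a median of -0.35, with 3 of 17 measured members lower and 0 higher. Those were Dusp1, which the list shares with the immediate early genes, Errfi1, an inhibitor of the EGF receptor (-0.61 ± 0.16), and the transcription factor Klf9 (-0.41 ± 0.10), whereas Per1 and Fkbp5, chosen after their values were seen, did not pass (-0.35 and -0.99). Errfi1 passed in 4 of the 12 fits that left out an array. With the muscle signal as a covariate Dusp1 alone of the 3 passed, and Errfi1 and Klf9 had an adjusted p of 0.0966 and 0.0823. Clock, a core transcription factor of the circadian oscillator, was lower by 0.36 (from 8.81 to 9.30 on the low-numbered to 8.42 to 8.77 on the high-numbered arrays, adjusted p = 0.0341) and was the 1 of 14 measured clock genes that passed. A dimmer Clock probe, detected on all 12 arrays at a mean signal of 4.98 against 8.80, gave -0.02. Per2, chosen after its values were seen, did not pass (-0.75 ± 0.25, adjusted p = 0.0972). Klf9 and Clock each failed the test in most of the 12 fits that left out an array, passing in 3 and 2 of them. No source used here gives the hour at which tissue was taken.

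**Figure D3:**
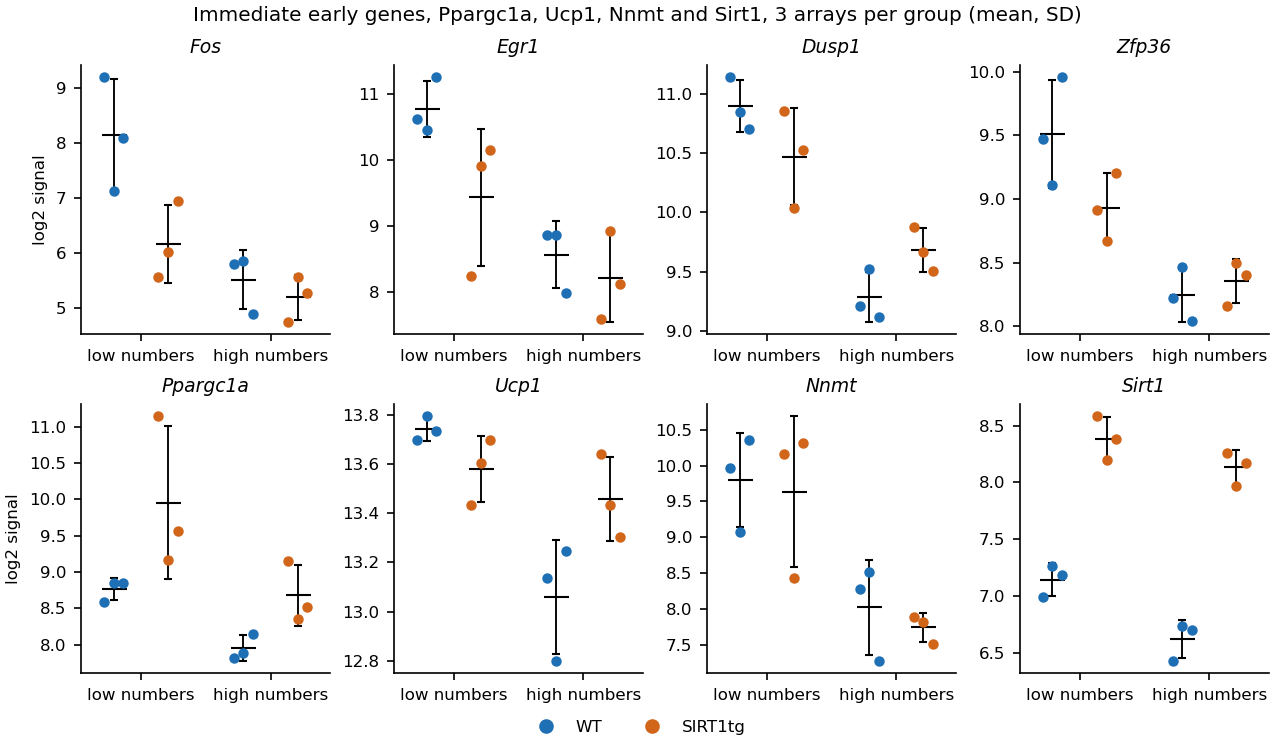
Normalised log2 signal (vertical axis, a separate scale in each panel) of 4 immediate early genes and of Ppargc1a, Ucp1, Nnmt and Sirt1 on each array, by number range; points are arrays (blue WT, orange SIRT1tg), bars the mean and SD of 3 arrays. Dusp1 lies at 10.03 to 11.14 on low-numbered and 9.12 to 9.87 on high-numbered arrays, and Sirt1 lies higher in SIRT1tg within each range.

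Nnmt, nicotinamide N-methyltransferase, which consumes nicotinamide and methyl groups, was 3.57-fold lower, the largest such difference. It read 9.97, 9.08 and 10.36 on the WT low and 10.16, 8.43 and 10.32 on the SIRT1tg low arrays, against 8.28, 8.52 and 7.28 on the WT high and 7.89, 7.82 and 7.52 on the SIRT1tg high arrays. SIRT1tg low 2 was the array that overlapped, and WT and SIRT1tg differed in a like way, by -1.78 and -1.89. The fit gave -1.84 ± 0.32 (adjusted p = 0.0106), a further probe -1.79, and without the muscle-rich arrays the value was -2.27. Nnmt and Sirt1 were the 2 lower genes among 14 measured NAD enzymes and sirtuins, of which 0 passed as higher. Most members lay on the other side, with 10 of 14 above 0 and a median of 0.12. The signals of 3 of the 14 were higher without overlap, as were those of 1.39% of all genes. Sirt1 was lower by 0.39 (SE 0.10, adjusted p = 0.0473), in WT by 0.52 and in SIRT1tg by 0.25, but passed in only 2 of the 12 fits that left out an array.

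Of 27 measured thermogenic genes (37 listed) 2 were lower and 0 were higher, against 2.61% and 2.41% of all genes. The median was -0.18, and without the muscle-rich arrays it was -0.02. Ppargc1a, the coactivator PGC-1alpha that drives mitochondrial biogenesis and is induced by cold, read 8.59, 8.85 and 8.85 on the WT low and 11.14, 9.16 and 9.56 on the SIRT1tg low arrays. On the high-numbered arrays it read 7.82, 7.89 and 8.15 in WT and 9.15, 8.36 and 8.52 in SIRT1tg. The ranges did not overlap in WT, and nor did they in SIRT1tg, where the lowest low-numbered signal was 9.16 and the highest high-numbered one 9.15. It was 2.06-fold lower (-1.04 ± 0.27, adjusted p = 0.0430), a call that held in 3 of the 12 fits that left out an array and was lost with the muscle signal as a covariate (-0.90, adjusted p = 0.106). The other was Acot2, a mitochondrial acyl-CoA thioesterase (-0.66 ± 0.17), which passed in 2 of those 12 fits. A dimmer Acot2 probe, detected on all 12 arrays at a mean signal of 4.87 against 6.54, gave 0.03.

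Ucp1 itself did not pass. It lay between 13.43 and 13.79 on the low-numbered and between 12.80 and 13.64 on the high-numbered arrays (-0.40 ± 0.12, adjusted p = 0.0708). Within WT the difference was -0.68 (adjusted p = 0.0242) and within SIRT1tg -0.12 (adjusted p = 0.764), and the test of the difference between genotypes did not pass (0.56 ± 0.20, adjusted p = 0.610). Cidea, a lipid droplet protein of brown fat, had a difference of 0.03 ± 0.07 and Elovl3, a cold-induced elongase, of -0.58 ± 0.42, without passing. In limma 0 of 33 genes of respiratory complex I (median -0.02), 0 of 21 of cytochrome c oxidase (0.05), 0 of 14 of ATP synthase (0.01) and 0 of 59 mitochondrial ribosomal proteins (0.00) passed, with 1, 1, 0 and 5 at an unadjusted p under 0.05. Of 21 measured genes of mitochondrial fatty acid oxidation 1 was higher and 1, Acot2, lower, with 15 below 0 and a median of -0.06. The higher one was Acaa2, a thiolase (0.42 ± 0.10), which passed in 4 of the 12 fits that left out an array. Its 3 other probes gave 0.44, 0.45 and -0.01. Among peroxisomal genes Cat, catalase (-0.38 ± 0.10), and Acot4 (-0.57 ± 0.15) were lower, as 2 of 23 measured. Slc25a34, a mitochondrial carrier of unsettled substrate, was lower by 1.17 (SE 0.31). A dimmer Slc25a34 probe, detected on 8 of 12 arrays at a mean signal of 4.65, gave -0.24. Cat passed in 3 and Acot4 and Slc25a34 each in 2 of the 12 fits that left out an array. With the muscle signal as a covariate none of them passed (adjusted p = 0.0526, 0.110 and 0.0959).

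Among adipocyte transcription factors 3 of 20 measured genes were lower and 0 higher, with a median of -0.20. Zfp423, which commits precursors to fat and restrains the thermogenic programme, lay between 5.31 and 5.82 on the low-numbered and between 4.80 and 5.01 on the high-numbered arrays, without overlap (-0.68 ± 0.09, adjusted p = 0.00721). Nr1h3, the oxysterol receptor LXR-alpha, did not overlap either (median 9.63 against 9.08, -0.52 ± 0.11), and Klf9 was the other. Pparg, the master regulator of fat cells, and its target Adipoq, which encodes adiponectin, did not pass (-0.17 ± 0.11 and -0.26 ± 0.11). Lpl, lipoprotein lipase, did not pass either (-0.22 ± 0.07, adjusted p = 0.0999), although its high-numbered signals of 13.68 to 13.93 lay below all low-numbered ones.

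Of 19 lipolysis and lipid droplet genes 2 were lower and 1 was higher. Aqp7, the glycerol channel of fat cells, lay between 9.96 and 10.71 on the low-numbered and between 9.07 and 9.96 on the high-numbered arrays (-0.72 ± 0.15, adjusted p = 0.0219). Abhd5, the coactivator of triglyceride lipase, was lower by 0.54 and Plin3, a droplet coat protein, higher by 0.44. Aqp7 passed in 11, Abhd5 in 3 and Plin3 in 4 of the 12 fits that left out an array, and with the muscle signal as a covariate 0 of the list passed (adjusted p = 0.0510 for Aqp7, 0.0636 for Abhd5 and 0.0752 for Plin3). Vldlr, a lipoprotein receptor, was lower by 0.34, as 1 of 17 genes of fatty acid uptake, and passed in 2 of those 12 fits. Other bright Vldlr probes gave -0.36 and -0.37, and dimmer ones -0.01 and 0.16. Of 19 measured insulin signalling genes 1 was higher and 1, Socs3, lower, with 13 below 0 and a median of -0.13. The higher one was Grb14, an adaptor that inhibits the insulin receptor, 1.98-fold higher (5.55 to 6.65 against 6.77 to 7.76, no overlap). Retnla, a secreted resistin-like protein, was higher by 1.34 ± 0.30 and Rbp4, the retinol carrier, by 0.93 ± 0.22. Retnla passed in 9 and Rbp4 in 4 of the 12 fits that left out an array.

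Other large differences fell outside the lists. St3gal5, the sialyltransferase that makes the ganglioside GM3, was 2.39-fold lower (8.68 to 9.74 against 7.20 to 8.39, no overlap, adjusted p = 0.00769). Cyp4b1, a cytochrome P450 (-1.24 ± 0.21), Sgk2, a kinase related to SGK1 (-1.61 ± 0.31), and Slc12a2, the sodium-potassium-chloride cotransporter NKCC1 (-0.97 ± 0.21), were lower, as were Prrc2a (-1.18), Tatdn2 (-1.11), Gramd1b (-1.06) and Crip2 (-0.91). Higher were Camk2b, a subunit of the calcium-calmodulin kinase (1.28 ± 0.22), Rab6b, a Golgi GTPase (1.25 ± 0.24), Cela1, an elastase (1.21 ± 0.29), and Gldn, gliomedin (1.35 ± 0.36). Of these genes Cela1 passed in 2, Gldn in 3, Tatdn2 in 4 and Gramd1b in 7 of the 12 fits that left out an array. Atp4b, annotated as the gastric proton pump's beta subunit, was higher by 1.42 ± 0.27 but was detected on 3 of 6 low-numbered arrays. In 3 of 26 chaperone genes the difference passed, all higher: the small heat shock proteins Hspb1 (0.91 ± 0.15) and Hspb6 (0.79 ± 0.21) and the co-chaperone Stip1 (0.41 ± 0.09), while the list's median was -0.08. Leaving out 1 array gave 1 to 4 calls in this list. Hspb1 passed in all 12 such fits, Stip1 in 8 and Hspb6 in 2, and Hspb6 failed with the muscle signal as a covariate (adjusted p = 0.112).

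**Figure D4:**
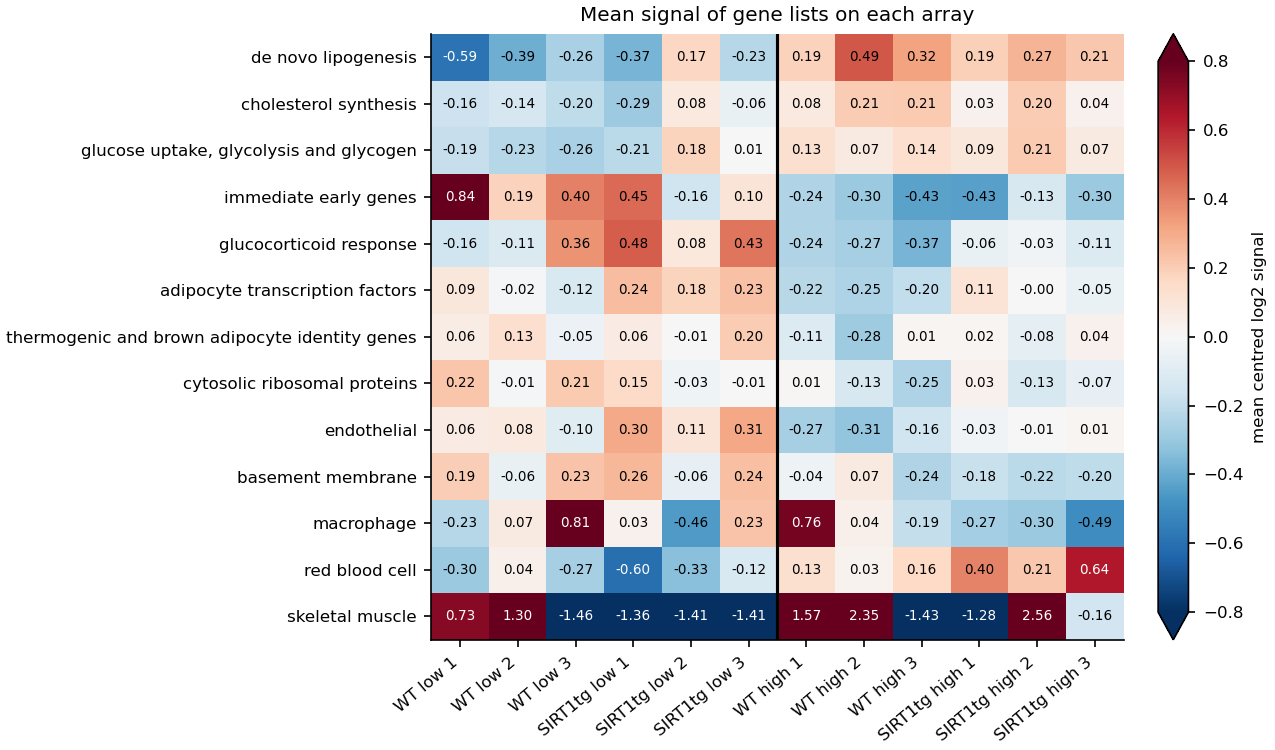
Mean log2 signal of the measured members, each centred on its own mean of the 12 arrays, for 13 gene lists (vertical) on each array (horizontal, low-numbered left of the line); colours are cut at 0.8 on either side and the numbers give the value. De novo lipogenesis is at 0.19 to 0.49 on high-numbered arrays and at 0.17 on SIRT1tg low 2. Skeletal muscle runs from -1.46 to 1.30 on low-numbered and from -1.43 to 2.56 on high-numbered arrays.

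Markers of other cell types were read beside these. All 25 measured skeletal muscle genes (40 listed) had a positive difference, with a median of 1.10 and 0 past the test in limma (2 of 25 at an unadjusted p under 0.05). The list's mean centred log2 signal was 0.73, 1.30 and -1.46 on the WT low and -1.36, -1.41 and -1.41 on the SIRT1tg low arrays. On the high-numbered arrays it was 1.57, 2.35 and -1.43 in WT and -1.28, 2.56 and -0.16 in SIRT1tg. Acta1, skeletal actin, ran from 4.44 to 10.11 on the low-numbered and from 4.32 to 11.79 on the high-numbered arrays. The lowest signals of the ranges lay close together, and the highest was on a high-numbered array. Acta1 was chosen after its values were seen. For the genes above, the fit with muscle as a covariate gave 2.04 for Acly, 1.38 for Fasn (adjusted p = 0.0502), -1.96 for Egr1, -1.89 for Nnmt and 0.78 for Pkm. In whole tissue, fewer cells of a type and less RNA per cell cannot be told apart.

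Of 21 measured endothelial genes 2 were lower, 1 had a positive difference, and the median was -0.25. Pecam1, the endothelial adhesion molecule CD31, lay between 7.27 and 7.70 on the low-numbered and between 6.42 and 7.01 on the high-numbered arrays, without overlap (-0.67 ± 0.12, adjusted p = 0.0116), and Eng, a coreceptor for TGF-beta, was lower by 0.49. Pecam1 passed in all 12 and Eng in 3 of the fits that left out an array. Of 12 basement membrane genes 3 were lower, with a median of -0.26: Col4a2 (10.40 to 11.09 against 9.87 to 10.29, no overlap, -0.64 ± 0.12), Col4a1 (-0.62 ± 0.15), both chains of type IV collagen, and Nid2, nidogen 2 (-0.48 ± 0.13), chosen after its values were seen. Col4a2 passed in all 12 fits that left out an array, Col4a1 in 4 and Nid2 in 1, and Col4a2 was the 1 that passed with the muscle signal as a covariate. In the fibroblast list Vim, the intermediate filament protein vimentin, was higher (0.76 ± 0.16) and Pdgfrb, a PDGF receptor, lower (-0.41 ± 0.10), with a median of 0.01. Vim passed in 10 and Pdgfrb in 5 of the 12 fits that left out an array. In limma 0 of 23 macrophage genes (median -0.15), 0 of 9 lymphocyte genes (-0.20) and 0 of 27 interferon-stimulated genes (0.01) passed, also at an unadjusted p under 0.05, and no epithelial marker was measured.

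Hba-a1, alpha globin, whose near-identical copy may share its probe, lay between 11.96 and 13.06 on the low-numbered and between 12.87 and 13.74 on the high-numbered arrays (0.82 ± 0.20, adjusted p = 0.0327). It was the 1 of 5 measured red blood cell genes that passed, all 5 had a positive difference, and the median was 0.46. The median member was Slc4a1, whose difference was -0.49 in WT and 1.41 in SIRT1tg, so its positive sign did not hold in WT. Cytosolic ribosomal protein genes had a median of -0.20, with 48 of 50 below 0 and 1 past the test (Rps26, -0.37 ± 0.10). Hba-a1 passed in 6 and Rps26 in 3 of the 12 fits that left out an array. The 16 nuclear-retained and splicing transcripts had a median of -0.22, with Srsf2, a splicing factor, lower (-0.44 ± 0.11). Kdm6a, an X-linked histone demethylase, was lower by 0.46, and Eif2s3y, Y-linked, was detected on all 12 arrays and did not pass (0.13 ± 0.18). Srsf2 passed in 5 and Kdm6a in 9 of the 12 fits that left out an array. The part of muscle, blood, vessel or RNA quality in the differences of the metabolic genes was not tested beyond the fits given.

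The difference between ranges was then taken within each genotype, 3 arrays against 3. In WT 269 genes passed (3.35%; 141 higher, 1.75%, and 128 lower, 1.59%), and in SIRT1tg 1 did (0.0124%), with 872 at an unadjusted p under 0.05. The test of the difference between genotypes passed for 1 gene (0.0124%, with 592 at an unadjusted p under 0.05). That gene, Slc4a1, differed by -0.49 in WT and by 1.41 in SIRT1tg, so a larger response in WT is not shown for any gene. All 404 genes had the same sign in both genotypes, which their choice by the common fit favours, against 63.6% of all genes. For 324 of the 404 the difference was larger in WT, with a median size of 0.60 in WT and 0.42 in SIRT1tg. Acly differed by 2.36 in WT and by 1.57 in SIRT1tg, Fasn by 1.85 and 1.05, and Fos by -2.62 and -0.98, and none of these 3 passed the test between genotypes (adjusted p = 0.778, 0.799 and 0.643). SIRT1tg low 2, at 12.71 for Acly and 8.62 for Fasn, is 1 of the 3 SIRT1tg low arrays behind these values.

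**Figure D5:**
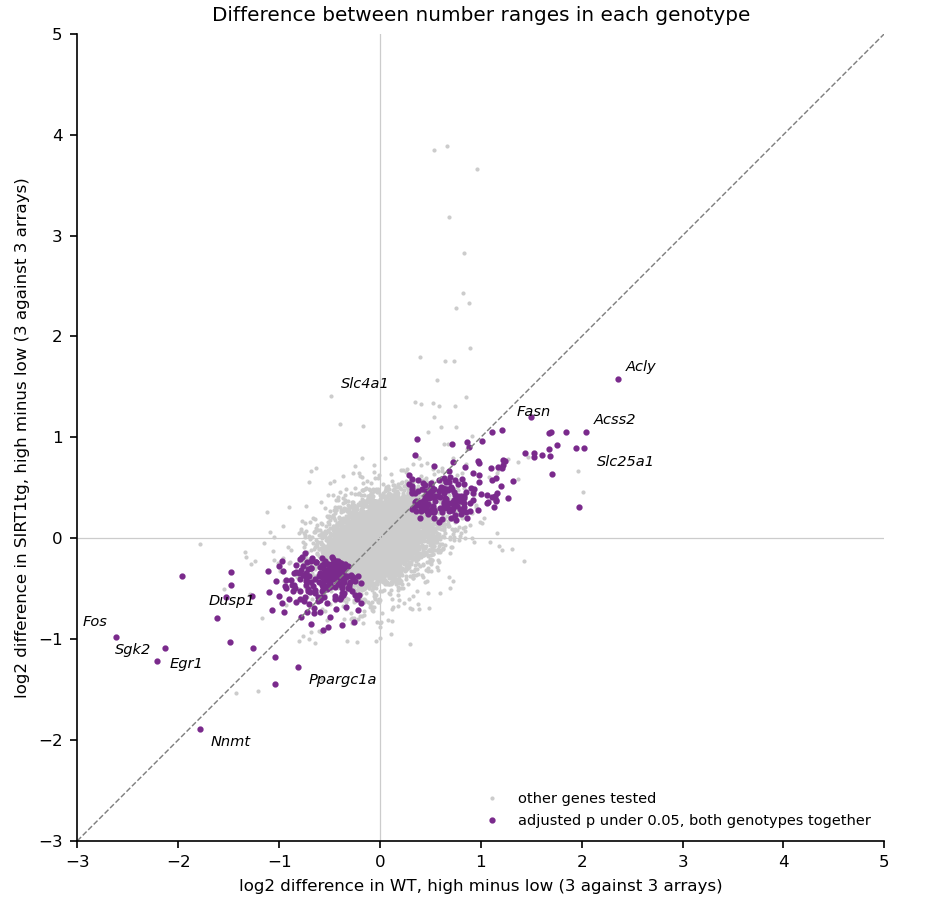
Log2 difference, high minus low numbers, of each of 8035 genes in WT (horizontal) and in SIRT1tg (vertical); purple points passed the test over both genotypes and the dashed line marks equal differences. Acly lies at 2.36 and 1.57 and Fos at -2.62 and -0.98, and Slc4a1 lies apart at -0.49 and 1.41.

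Slc4a1, the anion exchanger of red blood cells (band 3), was the gene whose difference depended on genotype. It read 5.34, 5.72 and 5.24 on the WT low and 5.22, 4.95 and 4.66 on the WT high arrays. In SIRT1tg it read 4.64, 4.70 and 4.60 on the low and 6.22, 5.79 and 6.15 on the high arrays. The ranges did not overlap in either genotype, in opposite directions. The differences were -0.49 in WT and 1.41 in SIRT1tg, and the difference between them was 1.90 ± 0.24 (adjusted p = 0.0264).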

How the data were processed

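Per the labels' protocols, RNA from brown adipose tissue was biotin-labelled for Illumina arrays. GenomeStudio is named in the submitters' processing notes, without a version. The authors deposited non-normalised bead signals, which are linear intensity values, and 1 detection p-value for each probe on each array. A further deposited table of processed intensity values was not used, since its columns carry no array number and cannot be placed in a range.

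The neqc function (limma 3.58.1, R 4.3.3) removed background by means of the detection p-values, added an offset of 16, equalised the quantiles and took log2. The platform annotation gave a single gene symbol for 23978 of 25697 probes. A probe was kept if 6 or more of the 12 arrays had its detection p under 0.05, and the brightest probe stood for each gene (8035 genes). The offset and the background compress the folds of dim genes. After quantile normalisation the brightest genes, such as Lpl and Ucp1, share values between arrays, and their differences may be compressed too. High minus low numbers was fitted with genotype as a covariate (lmFit, eBayes), with Benjamini-Hochberg adjustment across the whole table. Differences within a genotype and between genotypes came from a fit of 4 groups of 3 arrays. Every adjusted p is from these fits, and single values were permuted within genotype (400 splits). A list's signal is its members' mean log2 signal per array, each member centred on its own mean of the 12 arrays, and no test was run on a list.

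The comparison, the gene lists and the tests were chosen with earlier results of these data known. Named by rule were 10 anchor genes, the 15 largest differences per direction, up to 6 members per list that passed, and of other cell types and sample checks the 2 brightest and up to 2 that passed. For lists without a call but a median of at least 0.2 in size it took 3 members. Outside this rule, and after their values were seen, Acaca, Aacs, Dgat1, Scd1, Srebf1, Mlxipl, Elovl6, Insig1, Srebf2, Cyp51, Mfsd2a, Acta1, Atp2a1, Per1, Per2, Fkbp5, Fn3k, Nid2, Cox7a1, Cox8b, Fabp3, Kcnk3, Plin1, Fosb and Jun were added. Alternatives changed the background correction, scaling, detection filter, choice of probe, array weights and covariates, or left out arrays. On simulated data of 8035 genes with 200 changed, the fit recovered 62.8% at a log2 change of 0.5 and 97% at 1, with 5.65% of calls false. The simulated noise was normal and independent between genes, and no array stood apart. These rates therefore need not hold for the genes that passed here.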

Additional observations from a re-analysis of the deposited data

Results flagged for a closer look

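The signals of 134 named genes, without Insig1, Srebf2, Cyp51, Per1 and Fkbp5, made 268 sets of 6, with each range taken apart. On 17 of these sets 1 array stood apart from the other 5 by a gap larger than Dixon's critical value. Chance alone passes that value in about 1 of 20 sets. SIRT1tg low 2 accounted for 8 of the 17. It was far above the other low-numbered arrays for Acly (12.71, others 10.81 to 11.28), Acss2 (11.02, others 9.59 to 9.99), Slc25a1 (11.42, others 9.78 to 10.30), Me1 (10.92, others 9.06 to 9.46), Acaca (13.31, others 12.04 to 12.44), Pdhb (11.10, others 10.22 to 10.52) and Atp4b (5.97, others 4.38 to 4.69). It was below them for Slc25a34 (7.72, others 8.41 to 8.74). All 8 signals lay on the side of the high-numbered arrays.

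Of the other low-numbered arrays, WT low 3 was high for Lpl (14.12), and SIRT1tg low 3 was low for Prrc2a (5.64) and high for Cat (10.15). Of the high-numbered arrays, WT high 1 was high for the leukocyte genes Cd52 (8.73) and Coro1a (8.54) and low for Atp2a3 (6.91). SIRT1tg high 2 was low for Prrc2a (5.06) and high for Ccl21b (6.98), and SIRT1tg high 1 was low for Gldn (6.01).

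The difference between ranges itself differed between genotypes for Slc4a1, by 1.90 on the log2 scale (SIRT1tg minus WT).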

How the results depend on the processing

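No paired analysis was possible because the columns carry a genotype and an array number but no replicate number, so no replicate block could be fitted. The counts of higher and lower genes (194 and 210) were 148 and 137 without the genotype covariate, 141 and 128 on WT arrays alone, 1 and 0 on SIRT1tg arrays alone, 68 and 187 with median scaling, 108 and 130 with no filter on detection, 107 and 98 with the muscle signal as a covariate, and 0 and 0 without the 5 muscle-rich arrays. The last of these was chosen after seeing the data, as were the alternatives for list medians, and the fits on fewer arrays have fewer samples. Leaving out each array in turn gave 40 to 316 higher and 43 to 322 lower genes. Under normexp with an offset of 50, no background correction, cyclic loess, detection on at least 3 or on all 12 arrays, the mean of a gene's probes, array weights and a robust trended prior, both counts stayed within 1.5 times. Of 81 named genes that passed, 27 did so whichever array was left out. None of the 81 changed sign under any of these alternatives, which their choice on the same arrays favours.

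Of the 134 named genes put through these alternatives 19 changed sign somewhere, and none of these had passed. The cause was not tested, here or for the counts above. Insig1, Srebf2, Cyp51, Per1 and Fkbp5 were not among the 134. On WT arrays alone the difference was -0.033 for Cidea, 0.029 for Lyz1, -0.076 for Des, -0.016 for Ccl21b, -0.17 for Sfxn1, -0.49 for Slc4a1 and -0.12 for Srebf1. With the mean of detected probes the difference was 0.14 for Pparg, 0.0097 for Lyz1, -0.0086 for Cd74 and -0.14 for Rpl23. On SIRT1tg arrays alone the difference was -0.031 for Sparc, -0.051 for Cd74, 0.0038 for Rpl41, -0.048 for Scd1 and 0.022 for Cox8b. Without the 5 muscle-rich arrays the difference was -0.030 for Sparc, -0.12 for Cd74, -0.092 for Ccl21a, -0.13 for Ccl21b, -0.032 for Scd1 and 0.018 for Plin1. With median scaling the difference was -0.034 for Cd74 and -0.0019 for Des. With array weights the difference was -0.035 for Cd74, 0.019 for Pmp22, -0.0072 for Ccl21b, 0.0034 for Rpl41 and -0.014 for Rpl23. With the muscle covariate the difference was -0.15 for Des, -0.057 for Ccl21b, -0.0068 for Eif2s3y and -0.15 for Atp2a1. Leaving out 1 array at a time gave -0.075 to 0.072 for Cd74, -0.057 to 0.13 for Des, -0.22 to 0.026 for Pmp22, -0.069 to 0.29 for Ccl21b, -0.036 to 0.0075 for Rpl41 and -0.0050 to 0.047 for Rpl23.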

Other observations

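A few lists not described above held single calls. Of 30 measured proteasome genes 23 had a positive difference, with a median of 0.11, and Psmb7, a subunit of the catalytic core, was higher (0.44 ± 0.10, adjusted p = 0.0315) but passed in 4 of the 12 fits that left out an array. Of 17 adrenergic and cyclic AMP genes 1 was higher and 1, Ppargc1a, was lower. The higher one was Adcy10, the soluble adenylyl cyclase (0.76 ± 0.16, adjusted p = 0.0229), which was detected on 4 of 6 low-numbered and 6 of 6 high-numbered arrays. Of 12 measured replication and cell cycle genes 1 was lower, Hmgb2, a chromatin protein (-0.43 ± 0.11, adjusted p = 0.0465), which passed in 2 of those 12 fits.

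Mfsd2a, a lysolipid transporter chosen after its values were seen, did not pass (-1.36 ± 0.68, adjusted p = 0.240). It read 4.58, 6.87 and 8.97 on the WT low and 11.06, 7.50 and 10.01 on the SIRT1tg low arrays. On the high-numbered arrays it read 5.63, 5.20 and 5.97 in WT and 8.81, 8.43 and 6.77 in SIRT1tg, so that the signals spanned more within each range than the ranges differed.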
